A study of Mus musculus with 6 samples.

Results

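Transcripts of 5 genes of the HoxA cluster (Hoxa3, Hoxa5, Hoxa7, Hoxa9 and Hoxa10) and of 3 genes of the MEIS and PBX cofactors of HOX proteins (Meis1, Pbx2 and Pbx3) were examined in AE9a leukemia cells. The 8 genes were taken by name from the 53618 named rows of the deposited RNA-seq table. Fetal liver cells of Usp18+/f UBCER-Cre mice had been transduced with a GFP retrovirus carrying AML1-ETO9a (AE9a), a truncated form of the AML1-ETO fusion protein of acute myeloid leukemia (AML), and transplanted into irradiated wild-type C57BL/6 mice. Once recipients were sick they received corn oil (3 libraries, Usp18+/f) or tamoxifen (3 libraries, labelled Usp18+/Δ), and GFP+Lin-c-Kit+ cells were sorted from the spleen 3 days after the first injection. Cells of both groups carried AE9a, 1 floxed Usp18 allele and the tamoxifen-inducible Cre, which the ubiquitin C promoter drives in every cell of the line, so oil controls for the vehicle and not for the activated Cre. Each library came from 1 mouse, and the mice shared a leukemia that had been passed on by transplantation, so the p-values measure the spread between recipients. The comparison asks how removal of a single Usp18 allele alters the transcripts of the leukemia cells.

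HOXA proteins are homeodomain transcription factors of the stem and progenitor stages of blood formation, and the cluster is normally closed as cells mature. They bind DNA together with TALE homeodomain proteins: PBX proteins contact the HOX protein directly, and MEIS1 joins PBX and HOXA9 in a larger complex. High HOXA9 and MEIS1 levels are known from leukemias with KMT2A (MLL) fusions or mutated NPM1, in which PBX3 is a further cofactor, whereas leukemias with AML1-ETO are known for low levels of HOXA genes.

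The 5 HoxA genes lie on the minus strand of chromosome 6 (GRCm38, GENCODE vM21), where Hoxa3 spans 52169062 to 52213336, Hoxa5 52201754 to 52204587, Hoxa7 52214491 to 52221854, Hoxa9 52223100 to 52231089 and Hoxa10 52231197 to 52240854. Meis1 lies on the minus strand of chromosome 11 (18879817 to 19018985), Pbx2 on the plus strand of chromosome 17 (34591266 to 34597400) and Pbx3 on the minus strand of chromosome 2 (34171457 to 34373142). Promoter windows of 300 bases, from 250 before to 50 after an annotated start, were available from RefSeq (GRCm38.p6) for 7 of the 8 genes. Those of Hoxa5, Hoxa9 and Pbx2 are shown 5′ to 3′ on the strand of the gene because they set a CpG-rich and a CpG-poor promoter without reads beside the promoter of the 1 abundant member. Capitals mark each CG dinucleotide, the only motif searched, which reads the same on both strands.
Hoxa5 (chr6:52204538-52204837, minus strand): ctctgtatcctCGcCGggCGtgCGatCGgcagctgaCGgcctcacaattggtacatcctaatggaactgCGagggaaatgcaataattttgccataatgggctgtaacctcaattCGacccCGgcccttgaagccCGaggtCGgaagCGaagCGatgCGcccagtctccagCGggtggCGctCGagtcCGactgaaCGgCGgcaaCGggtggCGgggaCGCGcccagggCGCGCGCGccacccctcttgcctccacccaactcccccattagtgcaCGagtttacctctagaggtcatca
Hoxa9 (chr6:52227321-52227620, minus strand): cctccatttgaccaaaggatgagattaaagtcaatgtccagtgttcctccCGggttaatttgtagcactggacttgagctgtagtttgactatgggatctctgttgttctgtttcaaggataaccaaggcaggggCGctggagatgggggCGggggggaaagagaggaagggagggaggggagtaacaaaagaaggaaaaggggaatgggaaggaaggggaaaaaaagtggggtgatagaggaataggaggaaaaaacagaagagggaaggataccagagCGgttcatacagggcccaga
Pbx2 (chr17:34592009-34592308, plus strand): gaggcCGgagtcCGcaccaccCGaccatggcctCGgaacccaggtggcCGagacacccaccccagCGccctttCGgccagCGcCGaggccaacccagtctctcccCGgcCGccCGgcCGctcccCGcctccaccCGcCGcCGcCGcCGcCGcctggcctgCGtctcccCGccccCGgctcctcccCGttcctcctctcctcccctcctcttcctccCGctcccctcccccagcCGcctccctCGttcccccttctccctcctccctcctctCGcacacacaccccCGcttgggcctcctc
The Hoxa5 and Pbx2 windows each held 29 CG dinucleotides, more than 87.1% of the 32851 promoter windows, whose median was 7. The Hoxa9 window held 4. The Hoxa9 and Pbx2 windows lie inside the gene spans given above, so they belong to RefSeq starts downstream of the outermost GENCODE start. The other windows held 20 (Hoxa3), 9 (Hoxa7), 12 and 21 (2 starts of Hoxa10) and 15 (Meis1).

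The libraries held 19164795 to 23770537 reads in named genes. Values are normalized counts, meaning reads divided by a size factor of the library, and 1 read was worth 0.898 to 1.28 normalized counts. The labels were checked first. Usp18, the targeted gene, was higher in the libraries labelled tamoxifen (477, 329 and 284 normalized counts) than in those labelled oil (217, 214 and 176), which goes against the labels. The labels were kept as given. Its log2 fold change was 0.81 (SE 0.25, limma adjusted p = 0.666), and the count takes in reads from the whole gene, floxed or not. The library labelled tamoxifen 1 stood apart, with a median correlation of 0.913 to the other libraries where each of the others had 0.981 to 0.990, and with 0.00923% of its reads from mitochondrial genes against 1.01% to 1.56%. The sorted cells carried Kit (4687 to 10976 normalized counts) and Gata2 (8872 to 13302), as well as Myb (3097 to 6692) and Cd34 (201 to 1052), but Ptprc, the gene of the leukocyte antigen CD45, stayed at or below 8.08, Cd33 at or below 5.05, Flt3 at or below 1.28 and the myeloid granule gene Mpo at or below 20.2. Erythroid genes were high (Klf1, 4942 to 11837, and Epor, 1241 to 2772), as were some mast cell and basophil genes (Ms4a2, 2965 to 19301, and Cpa3, 3823 to 9431). Other mast cell and basophil markers were low, with 26.0 to 96.4 for Mcpt8 and 7.19 to 153 for Tpsb2. Of 8 listed progenitor and leukemia markers, 4 (Kit, Gata2, Myb and Cd34) had 10 or more normalized counts in at least 3 libraries. Kit was fixed in advance by the sort for c-Kit, so it does not bear on the labelled AML cell type. Ptprc, Mpo, Cd33 and Flt3 did not match that label, and the cells are named here by the sort. Ly6g and Cd3e, defining genes of neutrophils and T cells, had no reads.

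**Figure D1:**
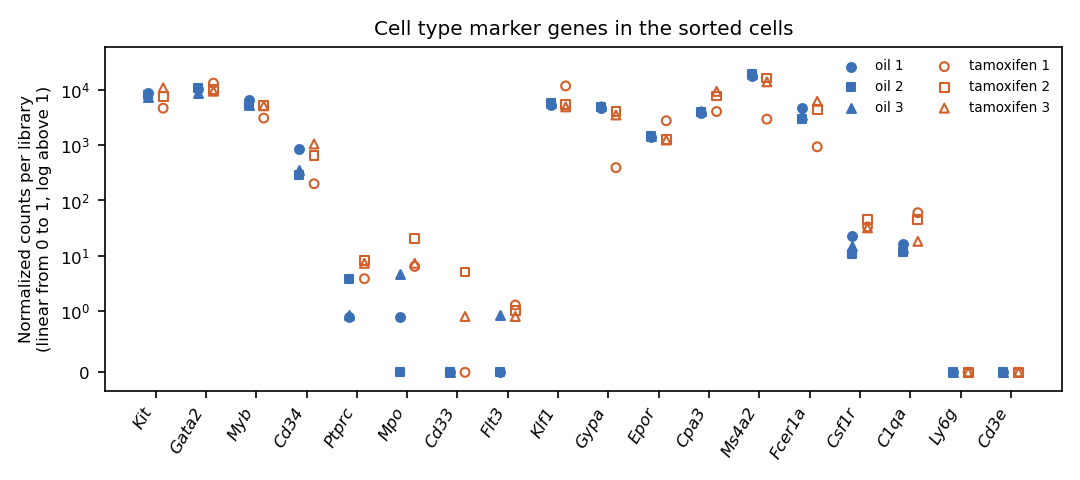
Normalized counts per library (vertical axis, linear from 0 to 1 and log above) of cell type marker genes, with filled blue symbols for oil, open orange symbols for tamoxifen and 1 symbol shape per replicate number. Kit, Gata2, Klf1, Epor, Ms4a2 and Cpa3 lie far above Ptprc, Mpo, Cd33 and Flt3, of which the highest value is 20.2.

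The HoxA genes were silent at this depth in both groups. Hoxa3, Hoxa5, Hoxa7 and Hoxa9 had 0 reads in each of the 6 libraries. Over all libraries this is 0 of 133453534 reads, and a count of 0 allows up to 3 reads in each library, or 0.126 to 0.157 CPM (reads scaled to the library total). Such limits cover counting error only, because no molecular identifiers separate molecules from their PCR copies. Hoxa10 had 1 read, in the library labelled tamoxifen 3 (0.909 normalized counts), and 0 reads in the other libraries.

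Hoxa9, the HOX gene most closely tied to leukemia, could have reached 0.0672 to 0.0772 TPM (a transcript abundance: reads per exon length, scaled so that all genes of a library share the same total) in a library without being seen. Hoxa7 and Hoxa10, its neighbours on either side in the cluster and also progenitor genes, and Hoxa3 and Hoxa5, nearer the end of the cluster that opens first in the embryo, gave the same picture. No fold change between oil and tamoxifen can be given for these 5 genes, because both groups were at or under the limit of 3 reads.

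A gene without reads is common in such a table. Among 21632 protein-coding genes, 29.1% had 0 reads in all 6 libraries and 40.9% had at most 3 reads in each, against 4 and 6 of the 8 members. Only 1 member, Pbx2, passed the filter of 10 normalized counts in at least 3 libraries, which 49.9% of protein-coding genes passed.

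The absence of reads extended along the cluster. Between the start of Hoxa2 and the end of Hoxa13 (chromosome 6, 52162417 to 52260880, 98.5 kb) the table held 25 annotated genes, and 24 of them had 0 reads in all libraries. The single Hoxa10 read was the only one assigned to the interval. All 6 listed noncoding RNAs of the cluster were at 0 reads, among them Hotairm1 and Hottip, which are transcribed at its ends. Genes on both sides of the cluster had many reads. Skap2, on the Hoxa2 side, had 816 ± 44.7 normalized counts in oil (SD, n = 3) and 629 ± 305 with tamoxifen, and Hibadh, on the Hoxa13 side, had 1973 ± 67.6 and 1449 ± 437. Evx1, the homeobox gene next to Hoxa13, had 0 reads, and Jazf1, beyond Hibadh, had 3 reads over all libraries.

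**Figure D2:**
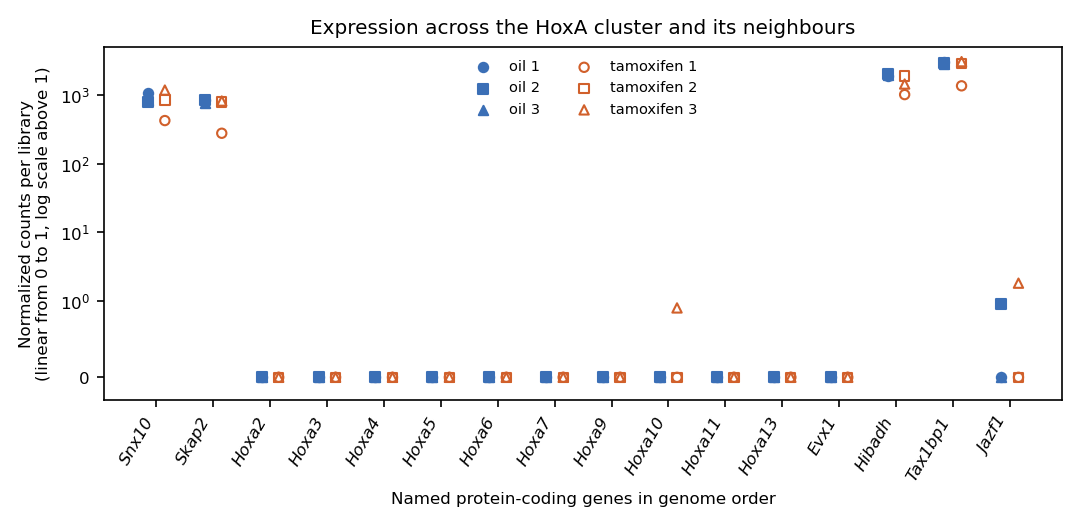
Normalized counts per library (vertical axis, linear from 0 to 1 and log above) of named protein-coding genes of chromosome 6 in genome order, with 1 symbol per library. The HoxA genes shown lie at 0 but for the single Hoxa10 read of 0.909, while flanking genes such as Skap2 and Hibadh have means from 629 to 1973.

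The part of exon overlap with other genes in these counts was not tested. The share of exon bases in no other annotated gene was 100% for Hoxa5, Hoxa10 and Pbx3, and 98.5% for Hoxa9. It was 79.6% for Hoxa7, 72.9% for Hoxa3 and 81.7% for Meis1. For Pbx2 it was 93.8%, with an exon overlap by Gpsm3 on the same strand. The genes that overlap Hoxa3, Hoxa7 and Hoxa9 lie within the silent interval.

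Meis1, the cofactor that most often accompanies Hoxa9 in leukemia, had 1 read in the library labelled oil 1 (0.898 normalized counts) and 0 reads in the other 5 libraries. Its exons sum to 10532 bases, the longest of the 8 genes, and 3 reads would correspond to 0.0356 to 0.0409 TPM. It was at or under the limit in both groups, so no fold change is given.

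Pbx3, the PBX gene tied to HOXA9-driven leukemia, was barely detected. It had 1, 4 and 10 reads in oil 1, 2 and 3, which are 0.898, 3.86 and 9.29 normalized counts, and 4, 8 and 9 reads in tamoxifen 1, 2 and 3, which are 5.11, 8.08 and 8.18. The groups overlapped, and the highest value was an oil library. The means were 4.68 ± 4.25 and 7.13 ± 1.75 (SD, n = 3 each). The mean difference of log2(value + 1) was 0.81, and an exact two-sided permutation test gave p = 0.4 where the smallest p that 3 against 3 libraries allow is 0.1. The difference was 0.18 without oil 1 and 1.40 without oil 3, the lowest and the highest values with a library left out, and 0.41 with a pseudocount of 5. Pbx3 did not pass the filter for the test across genes.

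Pbx2, a broadly expressed PBX gene, was the only abundant member. It had 1109, 1059 and 1085 normalized counts in oil 1, 2 and 3, from 1235, 1098 and 1169 reads. The values with tamoxifen were 1149, 1065 and 1122, from 899, 1054 and 1234 reads. The 6 values lay close together and the groups overlapped, with means of 1085 ± 25.0 and 1112 ± 43.0 (SD, n = 3 each). Per exon length Pbx2 stood at 43.6, 40.9 and 41.1 TPM in oil and at 30.9, 41.6 and 44.3 TPM with tamoxifen. The low TPM of tamoxifen 1 is relative to the other transcripts of that library and was not seen in normalized counts. The oil mean of 41.9 TPM was above that of 73.1% of the 14091 detected protein-coding genes.

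Set against the limit of 3 reads in the same library, Pbx2 was at least 459-fold higher per exon length than Hoxa9, at least 155-fold higher than Hoxa5, at least 237-fold higher than Hoxa7 and at least 495-fold higher than Hoxa3. For Pbx3 the comparison is of measured reads: no library had more than 10 reads over 6109 exon bases, where Pbx2 had 899 or more over 3640.

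Relatives of Meis1 and Pbx3 were expressed. Meis2 had 14.3 ± 1.04 TPM and Meis3 16.2 ± 1.10 TPM in oil (SD, n = 3), so the family was represented by these 2 genes rather than by Meis1. Pbx4 had 13.3 ± 1.38 TPM, Pknox1, a TALE gene of the same superfamily, 15.1 ± 1.91, and Pbxip1, which encodes a PBX-binding protein, 37.7 ± 4.67. Pknox2 had 0 reads. In the oil libraries Pbx2 and Pbxip1 overlapped at the top of this order, and the ranges of neighbours from Meis3 through Pknox1 and Meis2 to Pbx4 overlapped. Pbx2 exceeded Pbx4 by 2.93- to 3.91-fold per exon length within the 6 libraries.

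**Figure D3:**
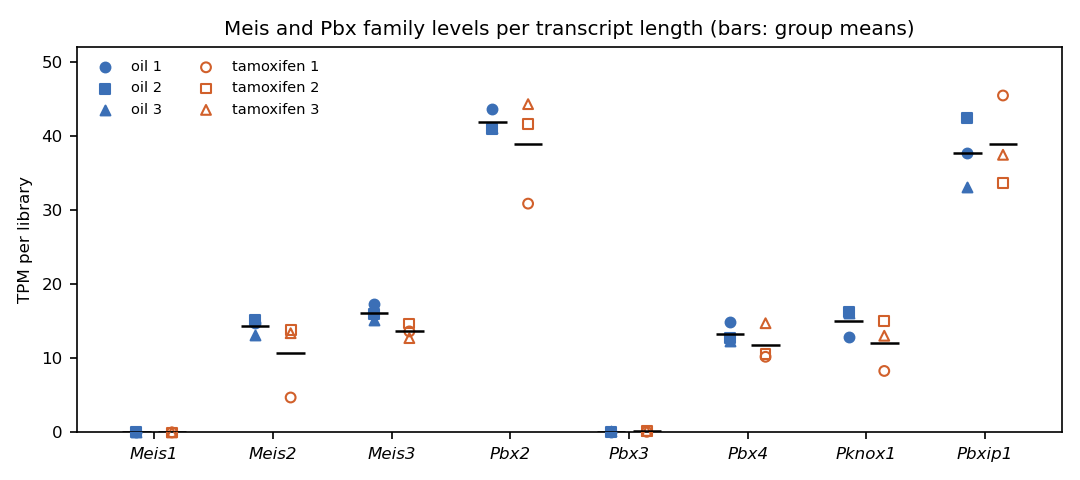
TPM per library (linear axis) of Meis and Pbx family genes, with filled blue symbols for oil, open orange symbols for tamoxifen, 1 symbol shape per replicate number and black bars at group means. Meis1 and Pbx3 lie at the bottom of the axis, and Pbx2 lies between 30.9 and 44.3 TPM.

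The Hox transcripts that these cells did contain came from another cluster. Of 27874 reads in 38 Hox genes over all libraries, 27621 (99.1%) fell in HoxC genes and 1 in a HoxA gene. Hoxc5 took 48.7%, Hoxc4 44.1% and Hoxc6 5.50%, followed by Hoxb4 with 0.839% and Hoxc9 with 0.768%. In oil, Hoxc4 stood at 114 ± 7.80 TPM and Hoxc5 at 106 ± 4.61, with overlapping ranges, and both lay above Pbx2 in all 6 libraries. Hoxc6 had 15.1 ± 1.43 TPM, Hoxc9 2.47 ± 0.545 and Hoxb4 2.08 ± 0.591. Hoxc5 was at least 1089-fold higher than Hoxa9, and Hoxc4 at least 354-fold higher than Hoxa5, per exon length against the limit of 3 reads in the same library. Hoxc4 and Hoxc5 belong to the paralog groups of Hoxa4 and Hoxa5, and Hoxc9 to that of Hoxa9. Of the 38 genes, 25 had 0 reads in all libraries and 33 had at most 3 reads in each, and Hoxb4, Hoxc4, Hoxc5, Hoxc6 and Hoxc9 passed the filter.

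**Figure D4:**
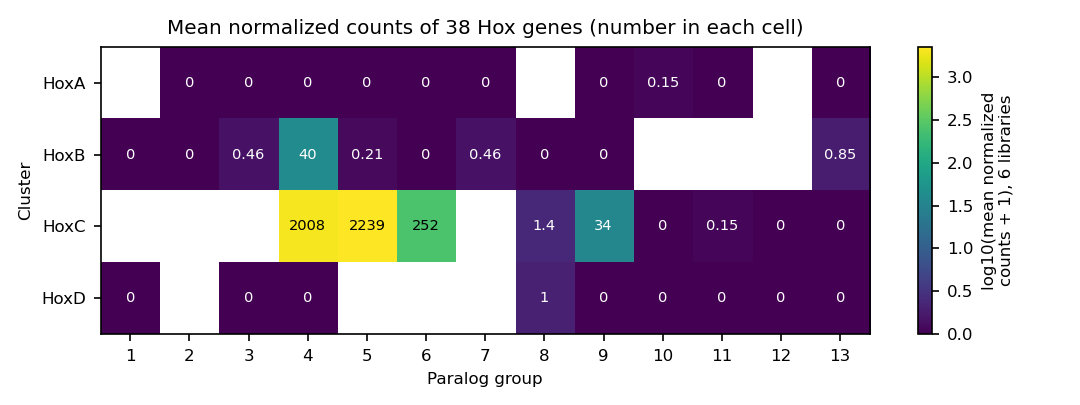
Mean normalized counts over the 6 libraries of 38 Hox genes, with clusters as rows and paralog groups as columns, the mean printed in each cell and colour giving log10(mean + 1). White cells hold no value, and the HoxA row is at 0 but for the trace of the single Hoxa10 read.

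Pbx2 was the only member that could be tested across genes, and it did not pass. For Pbx2 the log2 fold change was 0.035 (SE 0.13, limma adjusted p = 0.897), with a 95% interval from −0.28 to 0.35, or 0.823- to 1.28-fold. Without tamoxifen 1 it was 0.011, with an interval from −0.17 to 0.20. The direction of so small a value was not stable, since a correction for GC content gave −0.17. Of 12298 genes tested with all 6 libraries, 0 (0%) passed an adjusted p of 0.05 in limma, and 550 (4.47%) had an unadjusted p under 0.05. For the same genes edgeR called 0, and DESeq2 called 71 of the 15314 genes to which it gave an adjusted p. Without tamoxifen 1, 41 genes (0.333%) passed in limma, and Pbx2 was not among them. Bulk libraries cannot tell fewer cells of a type from less RNA per cell.

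None of 6 tested Meis and Pbx family genes passed either, Pbx2 among them. The others are given by their values: the log2 fold changes were −0.42 for Meis2, −0.08 for Meis3, −0.03 for Pbx4, −0.19 for Pknox1 and 0.20 for Pbxip1. The median over the 6 was −0.05, beside −0.02 for all genes tested. Meis2 had 1239, 1295 and 1150 normalized counts in oil and 580, 1174 and 1122 with tamoxifen, so that tamoxifen 1 alone stood low. Without it the Meis2 value was −0.10 (interval −0.29 to 0.10). Without tamoxifen 1, Pbxip1 went from 0.20 to −0.10, Meis3 from −0.08 to −0.26, Pbx4 from −0.03 to −0.11 and Pknox1 from −0.19 to −0.13. In tamoxifen 1 the log2 deviation from the oil mean was −1.08 for Meis2, whose longest transcript has 43.8% GC, and 0.80 for Pbxip1 with 56.1% GC and 0.08 for Pbx2 with 55.6%. With the GC correction Meis2 stood at −0.14 and Pbxip1 at −0.025, whereas Meis3 moved to −0.40, Pbx4 to −0.28 and Pknox1 to −0.20.

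None of the 5 tested genes of the HoxB to HoxD clusters passed, and their log2 fold changes had −0.11 as the median. Hoxc9 had 52.1, 34.7 and 40.9 normalized counts in oil and 25.6, 19.2 and 33.6 with tamoxifen, groups that did not overlap. Its log2 fold change was −0.70 (interval −1.49 to 0.09, limma adjusted p = 0.666), and it was −0.70 without tamoxifen 1. Among all genes tested, 9.69% had non-overlapping groups with tamoxifen lower and 7.86% with tamoxifen higher. Hoxc4 had a log2 fold change of −0.11, Hoxc5 −0.15 (−0.23 without tamoxifen 1) and Hoxc6 −0.08. For Hoxb4 the value was −0.10 with all libraries and −0.71 without tamoxifen 1, which had the highest count, 81.8 against 20.2 to 48.5 in the others.

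**Figure D5:**
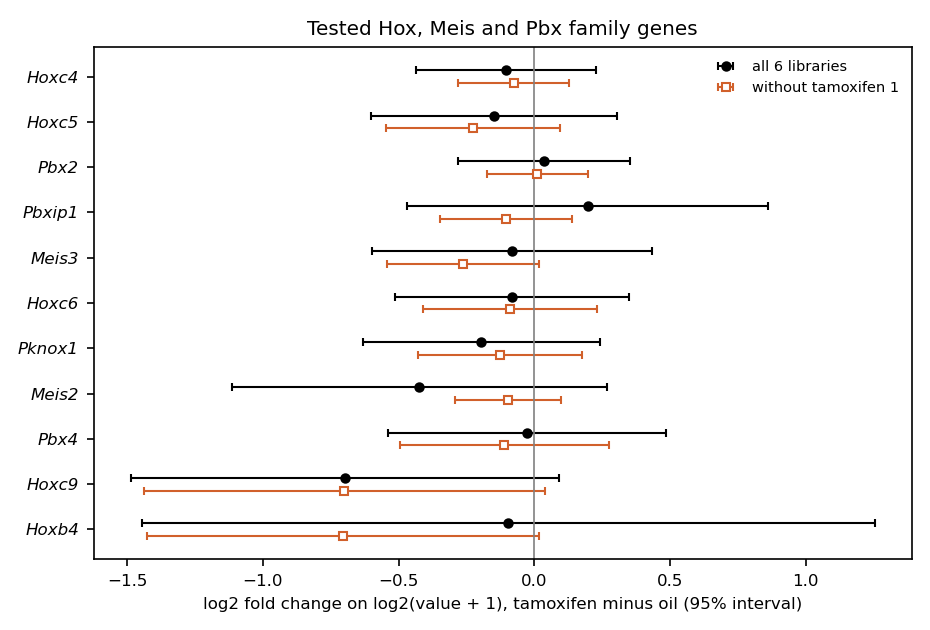
Log2 fold change, tamoxifen minus oil, of tested Hox, Meis and Pbx family genes in limma (horizontal axis), with 95% intervals, for all 6 libraries (black circles) and without tamoxifen 1 (orange squares). Every interval includes 0, and the values of Meis2 and Pbxip1 move towards or past 0 without tamoxifen 1.

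Genes listed as activators of HoxA transcription were expressed. Npm1 among them is tied to high HOXA9 levels in its mutated form, and mutations were not examined here. Of 21 listed activators, 18 were tested and the 3 Cdx genes, homeobox genes known to act upstream of HoxA, had 0 reads. None passed the test, 8 had positive and 10 negative log2 fold changes, and the median was −0.13, beside 0.010 without tamoxifen 1. The most abundant were Npm1, a nucleolar chaperone (26538 ± 2046 normalized counts in oil), Xpo1, a nuclear exporter (5747 ± 483), and Kat6a, a histone acetyltransferase (5289 ± 618). The log2 fold changes of these were −0.29, −0.66 and 0.01, and without tamoxifen 1 they were 0.23, −0.09 and 0.09. Kmt2a, the methyltransferase that keeps HoxA active, had 1634 ± 159 normalized counts in oil and 2060 ± 206 with tamoxifen, in groups that did not overlap. The log2 fold change of Kmt2a was 0.33 (limma adjusted p = 0.666), and 0.28 without tamoxifen 1 (limma adjusted p = 0.334). Rbbp5, a subunit of the KMT2 complexes, did not overlap in the other direction, with 2343 ± 110.4 and 1954 ± 375 (−0.28, and −0.11 without tamoxifen 1). These were 1 activator each, where 7.86% of all genes tested were separate with tamoxifen higher and 9.69% with tamoxifen lower. Both were named after their values were seen.

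Genes of a Polycomb list, which holds both subunits of the complexes that keep the cluster closed and opposing demethylases such as Kdm6a and Kdm6b, were expressed as well, with 14 of 15 past the filter. None passed the test, 6 had positive and 8 negative log2 fold changes, and the median was −0.07 (−0.04 without tamoxifen 1). Kdm6a, a demethylase, had 4515 ± 152 normalized counts in oil and 3300 ± 1121 with tamoxifen (−0.52, and −0.20 without tamoxifen 1). Suz12, a core Polycomb subunit, had 3611 ± 264 and 3173 ± 807 (−0.22, and 0.0058 without tamoxifen 1). Asxl1 had 2930 ± 116 and 3677 ± 929 (0.30, and 0.10 without tamoxifen 1).

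Genes known as targets of HOXA9 and MEIS1 in other cells were measured as well. Of 17 listed, 12 were tested and 4 had at most 3 reads in each library. None passed, 7 had positive and 5 negative log2 fold changes, and the median was 0.02, beside 0.25 without tamoxifen 1. Myb had 5807 ± 767 normalized counts in oil and 4483 ± 1201 with tamoxifen (−0.40, and −0.16 without tamoxifen 1). Cdk6 had 5030 ± 470 and 5505 ± 2429 (0.02, and 0.43 without tamoxifen 1), and Lmo2 3687 ± 207 and 3916 ± 1636 (0.01, but −0.31 without tamoxifen 1). Bcl2, the anti-apoptotic gene, had 14.4, 6.75 and 9.29 normalized counts in oil and 52.4, 20.2 and 55.5 with tamoxifen, with no overlap. Its log2 fold change was 1.90 (interval 0.70 to 3.11, limma adjusted p = 0.666), and it was 1.69 without tamoxifen 1. Syk, a tyrosine kinase linked to Meis1 in leukemia, had 324 ± 47.6 and 466 ± 60.2 normalized counts (0.53, limma adjusted p = 0.666). These 2 genes were the only ones of the 55 tested pathway genes with an unadjusted limma p under 0.05, edgeR and DESeq2 called 0 of the pathway genes, and they were named after their values were seen. Without tamoxifen 1, 10 of the 55 had an unadjusted p under 0.05, 7 of them among the 12 tested targets, beside 1488 of all genes (12.1%), and 0 of the 55 passed after adjustment. When limma weighted the libraries, 782 genes (6.36%) passed, among them 4 of the 55: Bcl2, Syk and Cdk6 higher and Lmo2 lower with tamoxifen. Of the 55 genes, 3 did not overlap with tamoxifen higher and 4 with tamoxifen lower, shares below the 7.86% and 9.69% of all genes tested.

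Summed markers of macrophages, neutrophils, T and NK cells and B cells were low, and each sum was higher in all tamoxifen libraries than in all oil libraries. The sums were not tested. The summed macrophage markers, 7 of 9 past the filter, ranged from 98.4 to 236 normalized counts in oil and from 276 to 377 with tamoxifen. The sums of 7 neutrophil markers, 1 past the filter, were 15.3 to 28.0 and 36.4 to 52.5, although Mmp8 among them was lower with tamoxifen (0 to 13.6) than in oil (8.98 to 19.3) on average. The sums of 8 T and NK cell markers, 1 past the filter, were 61.7 to 160 and 200 to 663, almost all of it Nkg7 (58.9 to 159 and 193 to 661). The sums of 5 B cell markers, 1 past the filter, were 10.6 to 26.0 and 40.9 to 47.5, most of it Ighm (3.86 to 21.6 and 33.2 to 46.5). The mast cell and basophil genes Tpsb2 (7.19 to 16.4 and 46.0 to 153) and Mcpt8 (26.0 to 40.9 and 60.1 to 96.4) were also separate between the groups with tamoxifen higher. Ms4a2 was separate with tamoxifen lower (17754 to 19301 and 2965 to 16499), and the summed mast cell and basophil markers overlapped (26588 to 27321 and 8162 to 30396). So did the erythroid sums (48454 to 67643 and 53253 to 85489) and the megakaryocyte and platelet sums (165 to 201 and 193 to 638). Bcl2 and Syk are expressed in several of these cell types too. The part of these cells in the Bcl2 and Syk values was not tested.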

How the data were processed

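RNA was measured in 6 libraries of sorted AE9a leukemia cells, 3 per group, with groups and replicate numbers from the sample labels. Per the labels, RNA was extracted with Trizol, libraries were made with a Nextera DNA Flex kit, and the submitters' processing notes name STAR, DESeq2 and mm10. Tool versions, annotation, strand setting and filters are not given in the sources used here. What the authors deposited is a signal, since each library’s reads of a gene had been scaled by a single size factor. Whole reads were recovered by dividing by the value of 1 read, with 100% of values whole within 0.01. Rows without a gene name (1832) took 0.0400% to 0.0614% of reads and were left out. Names were matched to GENCODE vM21 (51944 of 53618), 1402 split names were rejoined, and 108 rows repeat a name.

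The main test was fitted to log2(value + 1) in limma 3.58.1 under R 4.3.3, using an empirical Bayes trend, for 12298 genes with 10 or more normalized counts in at least 3 libraries. p-values were two-sided and Benjamini-Hochberg adjusted, with a threshold of 0.05. Fold changes are on the log2(value + 1) scale, which understates changes of low genes. TPM was computed from recovered reads over the union of exons. Genes at 3 reads or fewer were given no fold change. On recovered reads, edgeR (version 4.0.16) called 0 genes and DESeq2 (version 1.42.0) called 71. The other alternatives were voom, TMM scaling, pseudocounts of 0.5 and 5, no filter, at least 1 CPM in 3 libraries, a GC correction (loess, span 0.3), the replicate number as a block, library weights, and each library omitted in turn. Only the limma fit of the main test was first run on simulated data.

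The members and lists were chosen with earlier results of these data known. Named were the 8 members, Usp18 and the 3 genes with the highest mean of each list. A search for genes patterned like Hoxa9 and Meis1 could not be made, since neither passed the filter. Other genes were named after their values were seen. The results of 4 genes of the lists are not reported here, and these were left out of the lists and their counts. The columns held no samples other than these 6.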

Additional observations from a re-analysis of the deposited data

How the results depend on the processing

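Of the members that could be tested (1 in most alternatives, 2 with DESeq2 and 4 without the filter), 0 were called in any alternative. For 6 of the 8 members each library held 3 reads or fewer, which leaving out a library cannot change. The count of pathway genes called went from 0 to 4 only with library weights. The count over all genes went from 0 to 71 with DESeq2 (69 higher, 2 lower, of 15314 with an adjusted p), 2 with the GC correction and 782 with library weights (470 higher, 312 lower), and it ranged from 0 to 41 with each library left out, with 41 (38 higher, 3 lower) when tamoxifen 1 was left out. DESeq2 moved the median log2 fold change of all genes to 0.107. The oil mean of Pbx2 was 1109.7 after TMM scaling, against 1084.7. The cause of these shifts was not tested.

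Pbx2 turned to −0.17 with the GC correction, alone or with the replicate block, and stayed between 0.011 and 0.066 with any library left out. The replicate block changed no call: it called 0 members, 0 pathway genes and 0 genes in all, with Pbx2 at 0.035. The replicate numbers share no source in the labels, and the deviations of same-numbered libraries correlated at −0.02, 0.06 and −0.15.

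Of 22 tested genes followed, 11 kept their direction in every alternative run on them (Bcl2, 1 of the 11, did not reach 1 CPM in 3 libraries and has no value there), and the others turned as follows. The GC correction, with or without the block, gave −0.025 for Pbxip1, 0.057 for Npm1, 0.18 for Suz12 and −0.15 for Lmo2. Library weights gave 0.029 for Pbx4, −0.096 for Pbxip1, 0.18 for Npm1 and −0.34 for Lmo2. TMM scaling gave −0.016 for Kat6a, −0.0040 for Cdk6 and −0.013 for Lmo2. Hoxb4 was 0.14 with DESeq2 and 0.14 with edgeR, and Pbx4 was 0.0014 with edgeR. With each library left out, Hoxb4 ranged from −0.71 to 0.28, Hoxc5 from −0.25 to 0.031, Meis3 from −0.26 to 0.064, Pbx4 from −0.11 to 0.13, Pbxip1 from −0.10 to 0.38, Npm1 from −0.61 to 0.23, Kat6a from −0.054 to 0.10, Suz12 from −0.37 to 0.0058, Cdk6 from −0.28 to 0.43 and Lmo2 from −0.31 to 0.21. Depth limits the members. A change of Hoxa3, Hoxa5, Hoxa7, Hoxa9, Hoxa10 or Meis1 within 3 reads per library was not detectable.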
